A study of Mus musculus with 6 samples.

Results

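*Btg2*, *Ier2*, *Ier5*, *Klf2*, *Klf4*, *Klf6*, *Klf10*, *Atf3*, *Zfp36* and *Gadd45b* are early genes that many cell types use, not neurons alone. These 10 genes were chosen by name from the 22322 genes of the deposited table, on the diet contrast of the same 6 samples, which was known when the list was drawn up. Their differences between the diets are therefore a description, and where the number of them that passed a threshold is given, it stands beside the share of all genes that did so and is not evidence of a change. All 10 were among the 14188 genes with enough counts to be fitted. *Btg2* was the only one of them that stood well apart between the diets. In the arcuate nucleus (ARC) of mice on a high-fat diet (HFD) its fitted level was 36.6% of that in mice on a normal-chow diet (NCD). In the same fit *Ier5*, *Klf6* and *Zfp36* were at 90.3%, 99.5% and 95.5%. *Klf4* was at 49.9%, *Gadd45b* at 55.9%, *Ier2* at 65.7%, *Klf2* at 73.9%, *Atf3* at 78.6% and *Klf10* at 79.5%.

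The study examined how an obesogenic diet alters the ARC, the part of the mediobasal hypothalamus that holds the *Kiss1* neurons of the reproductive axis. Male mice were placed on NCD with 16.5% fat or on HFD with 60% fat at the age of 4 weeks and kept on it for 16 weeks. Frozen brain sections were cut by laser capture microdissection (LCM), which excises a chosen area with a laser, and mRNA of the excised ARC was enriched with oligo(dT) beads and sequenced. There were 3 samples per diet, called NCD1 to NCD3 and HFD1 to HFD3 here. The labels do not give the strain. The methods name C57BL/6J wild-type mice for the study and a *Kiss1*-Cre line crossed with an EYFP reporter to show where the *Kiss1* neurons lie, without saying which mice gave the sequenced tissue. Nor do they say whether a sample was 1 mouse or several, so p-values measure only the spread between these samples, which may be technical.

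The total count per sample was 15925648, 9937632 and 6882449 for NCD1, NCD2 and NCD3. It was 8024664, 10479778 and 5171381 for HFD1, HFD2 and HFD3. Levels are given as CPM, the usual unit of counts relative to the total of the library, with the totals scaled by TMM factors. A floor of 3 counts corresponded to 0.188 CPM in the deepest library and 0.58 CPM in the shallowest, both on unscaled totals. All 10 genes lay above 3 counts in every sample, with 13 to 1018 counts. Floors of this kind speak of counting error alone, because no molecular identifiers are described and PCR copies may count as separate reads. No sorting by cell type is described for the excised area. In such bulk samples fewer cells of a type and less RNA per cell cannot be told apart. Neuron markers were plentiful, with a mean *Snap25* level of 1237 ± 151.5 CPM on NCD and 1065 ± 258.9 CPM on HFD (SD, n = 3 per diet). The ARC peptide genes *Agrp*, *Npy*, *Pomc*, *Cartpt* and *Ghrh* were read in every sample. *Kiss1* had no count in NCD1 and HFD1 and 2.75, 4.81, 2.07 and 7.9 CPM in NCD2, NCD3, HFD2 and HFD3.

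Early genes are transcribed within minutes of a stimulus, from promoters whose factors are already bound or are switched on by phosphorylation, and need no new protein. Cyclic AMP response elements (CREs), bound by CREB, and CArG boxes, bound by serum response factor, are the best known of their promoter elements. Their transcripts are short-lived, in many cases because AU-rich elements in the 3′ untranslated region recruit decay factors. Some of them, such as *Fos*, *Egr1* and *Arc*, are read as signs of neuronal activity. The genes described here also respond to growth factors, blood flow, cytokines and stress in glia, vessel cells and many other cells.

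**Figure D1:**
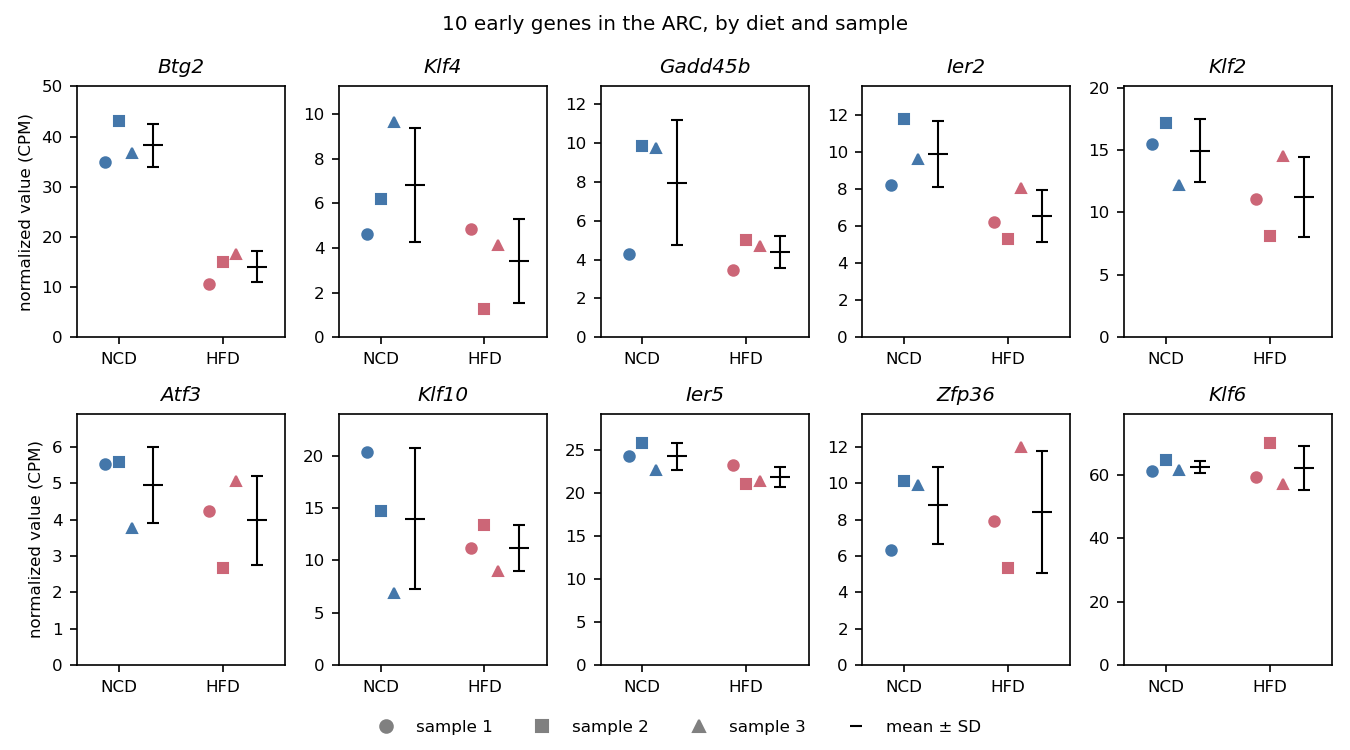
Normalized values (CPM, linear axis from 0) of the 10 early genes, with 1 point per sample (circle, square and triangle for samples 1, 2 and 3), NCD in blue and HFD in red, and the mean ± SD of each diet beside the points (n = 3). The panels run from the lowest log2 fold change (*Btg2*) to the highest (*Klf6*), and only in those of *Btg2* and *Ier2* do all HFD points lie below all NCD points.

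*Btg2* encodes an antiproliferative protein of the BTG/TOB family that links mRNAs to the deadenylase complex and is itself a target of p53. It lies on the minus strand at chr1:134075170-134079120 (GRCm38) and has 2 exons. It was at 34.9, 43.1 and 36.7 CPM in NCD1, NCD2 and NCD3 and at 10.6, 15 and 16.6 CPM in HFD1, HFD2 and HFD3. The 3 HFD samples lay far below the 3 NCD samples, with no overlap. The means were 38.2 ± 4.28 CPM on NCD and 14 ± 3.11 CPM on HFD (SD, n = 3 per diet), with a fitted log2 fold change of −1.45 (SE 0.24). Leaving out any 1 sample gave values from −1.58 to −1.28.

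The stretch before its start is shown because *Btg2* was the only one of the 8 genes with a promoter window in the RefSeq table (GRCm38.p6, 250 bases before to 50 after the start) that held a full CRE, TGACGTCA, while the *Klf6* stretch, from the gene nearest to 0 between the diets, held neither the CRE core TGACG, a CArG box nor a TATA box. The 250 bases before the start of *Btg2* lie at chr1:134079156-134079405 on the minus strand and those of *Klf6* at chr13:5861239-5861488 on the plus strand. Both are written 5′ to 3′, and capitals mark the CRE, whose first base is at −166 from the start.
Btg2: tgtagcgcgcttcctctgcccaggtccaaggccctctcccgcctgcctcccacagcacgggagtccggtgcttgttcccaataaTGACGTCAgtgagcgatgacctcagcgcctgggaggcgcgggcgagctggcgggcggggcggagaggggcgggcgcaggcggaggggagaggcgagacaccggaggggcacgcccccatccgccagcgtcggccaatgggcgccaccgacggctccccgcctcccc
Klf6: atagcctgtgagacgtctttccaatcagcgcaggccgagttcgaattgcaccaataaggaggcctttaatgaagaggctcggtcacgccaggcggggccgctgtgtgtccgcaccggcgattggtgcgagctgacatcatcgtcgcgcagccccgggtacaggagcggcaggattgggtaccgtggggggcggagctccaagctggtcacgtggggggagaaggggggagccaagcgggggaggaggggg
A full CRE occurred in 1.79% of all 32851 windows of this length. The core TGACG, searched on both strands and contained in the full CRE, occurred in the windows of *Btg2*, *Klf2*, *Klf4* and *Atf3*, 4 of 8, and in 20.8% of all windows. The windows of *Ier5*, *Klf6*, *Zfp36* and *Gadd45b* did not hold it. A match is a string of letters and not a site shown to be bound. Whether these strings have a part in the differences between the diets was not tested.

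*Ier2* and *Ier5* encode small nuclear proteins of the immediate early response family, and each has 1 exon. *Ier2* (chr8:84661331-84662852, minus strand) was at 8.25, 11.8 and 9.63 CPM in NCD1 to NCD3 and at 6.21, 5.32 and 8.09 CPM in HFD1 to HFD3. The diets did not overlap, but HFD3 lay just under NCD1, and above it when only genes with a mean count of 50 or more were fitted. The means were 9.9 ± 1.79 and 6.54 ± 1.41 CPM (SD, n = 3 each), with a log2 fold change of −0.61 (SE 0.30). *Ier5* (chr1:155096361-155099636, minus strand), whose protein binds protein phosphatase 2A and the heat shock factor HSF1, was at 24.3, 25.8 and 22.7 CPM in NCD1 to NCD3 and at 23.2, 21 and 21.4 CPM in HFD1 to HFD3. HFD1 lay above NCD3, so the diets overlapped. The log2 fold change was −0.15 (SE 0.21). *Ier5* was also the steadiest of the 10 within a diet, with an SD of 0.08 on the log2 scale against a median of 0.31 over all genes fitted.

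The Krüppel-like factors are zinc finger proteins that bind GC-rich promoter sequences. *Klf2* and *Klf4* are known from endothelium, where laminar flow induces them, and *Klf4* also from stem cells. *Klf2* (chr8:72319033-72321656, plus strand) was at 15.5, 17.2 and 12.2 CPM in NCD1 to NCD3 and at 11.1, 8.08 and 14.5 CPM in HFD1 to HFD3. HFD3 lay above NCD3, and the log2 fold change of −0.44 (SE 0.28) became −0.24 without HFD2 and −0.65 without HFD3. *Klf4* (chr4:55527143-55532466, minus strand) was at 4.64, 6.21 and 9.63 CPM in NCD1 to NCD3 and at 4.85, 1.28 and 4.14 CPM in HFD1 to HFD3. HFD1 lay above NCD1, and the value of HFD2 rested on 13 counts. *Klf4* was the least even of the 10 within a diet (SD 0.77 on the log2 scale). Its log2 fold change of −1.0 (SE 0.48) became −0.58 without HFD2.

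*Klf6* and *Klf10* differed less between the diets. *Klf6* (chr13:5861482-5870394, plus strand), a factor of cell growth and injury responses, was at 61.3, 64.5 and 61.4 CPM in NCD1 to NCD3 and at 59.2, 70 and 57 CPM in HFD1 to HFD3. The HFD samples lay on both sides of the NCD samples, and the log2 fold change was −0.01 (SE 0.19). Its sign changed with the processing: of 15 alternatives, 8 gave a value below 0, 4 one above 0 and 3 one that rounded to 0. *Klf10* (chr15:38291463-38300706, minus strand), an early gene of transforming growth factor beta (TGF-beta), was at 20.4, 14.7 and 6.92 CPM in NCD1 to NCD3 and at 11.2, 13.4 and 9.03 CPM in HFD1 to HFD3. The 3 NCD samples were spread on both sides of all HFD samples, by a factor of 2.95 from the lowest to the highest. The log2 fold change of −0.33 (SE 0.35) changed sign without NCD1 (0.04) and lay between −0.64 without NCD3 and 0.16 when the log2 total count entered the fit as a covariate.

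*Atf3*, *Zfp36* and *Gadd45b* belong to stress responses. *Atf3* (chr1:191170296-191218039, minus strand) encodes a leucine zipper factor induced by injury and by the integrated stress response. It was at 5.54, 5.6 and 3.76 CPM in NCD1 to NCD3 and at 4.23, 2.66 and 5.08 CPM in HFD1 to HFD3, overlapping. The log2 fold change of −0.35 (SE 0.38) became −0.11 without HFD2 and −0.55 without HFD3. *Zfp36* (chr7:28376784-28380253, minus strand) encodes tristetraprolin, which binds AU-rich elements and speeds the decay of cytokine mRNAs. It was at 6.32, 10.1 and 9.93 CPM in NCD1 to NCD3 and at 7.95, 5.32 and 12 CPM in HFD1 to HFD3. Its lowest and its highest sample were both HFD samples. The log2 fold change was −0.07 (SE 0.35), and it was above 0 without NCD2 (0.05), NCD3 (0.03) or HFD2 (0.19). *Gadd45b* (chr10:80930073-80932204, plus strand) encodes a stress sensor that acts on MAP kinase cascades and on DNA demethylation in active neurons. It was at 4.27, 9.87 and 9.78 CPM in NCD1 to NCD3 and at 3.48, 5.03 and 4.7 CPM in HFD1 to HFD3. NCD1 lay among the HFD samples, well below the other NCD samples. The log2 fold change of −0.84 (SE 0.39) became −1.17 without NCD1.

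The promoter windows of *Zfp36* and *Gadd45b* are shown because each was the only one of the 8 to hold a further string of those searched. These strings were a CArG box for *Zfp36* and TATAAA for *Gadd45b*. Variants of the TATA box were not searched, and the *Ier5* window holds one, TATATAA. The CArG box of *Zfp36*, in capitals with 10 bases on either side, begins at −58 from the RefSeq start (chr7:28379267-28379296, minus strand). That start lies inside the span of the gene given above and not at its end. The TATA box of *Gadd45b*, TATAAA in capitals and read on the gene's own strand, begins at −46 in the 250 bases before its start (chr10:80929841-80930090, plus strand).
Zfp36: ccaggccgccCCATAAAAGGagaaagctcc
Gadd45b: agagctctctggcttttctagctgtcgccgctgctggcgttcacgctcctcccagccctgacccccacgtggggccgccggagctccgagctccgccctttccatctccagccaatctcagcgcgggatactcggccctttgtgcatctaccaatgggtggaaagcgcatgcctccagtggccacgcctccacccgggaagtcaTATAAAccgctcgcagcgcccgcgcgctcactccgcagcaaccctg
A CArG box, searched on both strands, occurred in 1.63% of all windows and TATAAA in 8.32%. The GC box GGGCGG, searched on both strands and not capitalized, occurred in all 8 windows and in 35.7% of all windows. The median GC content was 64.2% in the 8 windows and 52.7% in all. *Ier2* and *Klf10* had no window.

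Of the 10 genes, 0 reached an adjusted p of 0.05 in the edgeR fit, a threshold that 0.0564% of the genes fitted passed (8 of 14188). DESeq2 put 1 of the 10, *Btg2*, and 0.134% of all genes under the same threshold. By the study's own rule, an unadjusted p under 0.05 and a change over 1.5-fold, 1 of the 10 was lower in HFD, again *Btg2*, against 0.888% of all genes in that direction and 1.90% in either. With DESeq2 the rule was met by *Btg2*, *Klf4* and *Gadd45b*, against 0.874% of all genes lower in HFD, and with limma on FPKM by *Btg2* and *Gadd45b*, against 0.644%. The count also moved with single samples. It was 4 without NCD1 (*Btg2*, *Ier2*, *Klf4* and *Gadd45b*, against 0.659% of all genes lower in HFD), 3 without HFD3 (*Btg2*, *Ier2* and *Klf2*, against 1.20%), 2 without HFD1 (*Btg2* and *Klf4*, against 0.641%) and 2 without NCD3 (*Btg2* and *Klf10*, against 2.26%). With the log2 total count as a term it was 4 (*Btg2*, *Ier2*, *Klf4* and *Gadd45b*, against 0.994%), and with a filter at 1 count 3 (*Btg2*, *Klf4* and *Gadd45b*, against 1.08%). The diets did not overlap for 2 of the 10, both lower in HFD, against 3.24% of all genes lower without overlap and 3.24% higher without overlap. The log2 fold change was below 0 for all 10 and for 49.5% of all genes, but for 5 of the 10 it was smaller than its standard error. The median was −0.39 for the 10 and 0.003 for all genes. The genes were chosen on this contrast, so these counts are given beside their background and nothing is read from them.

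**Figure D2:**
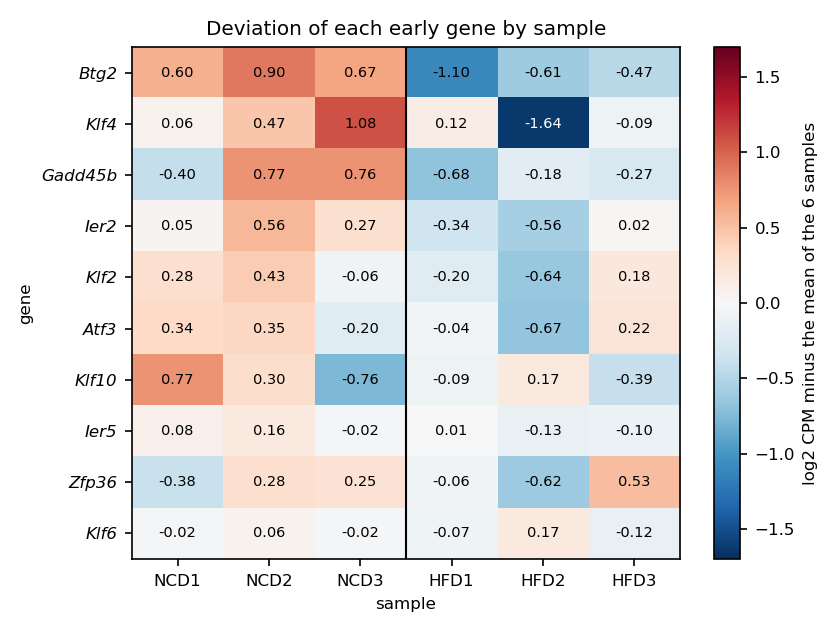
Each cell gives the log2 CPM of 1 gene in 1 sample minus its mean over the 6 samples, in red above and blue below that mean, with NCD left and HFD right of the line. *Btg2* is above its mean in all NCD and below it in all HFD samples, while the other genes change colour within a diet.

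The samples did not fall in one order over the 10 genes. Averaged over them, the deviation from the mean of the 6 samples was 0.14, 0.43 and 0.20 log2 units in NCD1, NCD2 and NCD3 and −0.24, −0.47 and −0.05 in HFD1, HFD2 and HFD3. HFD3 was thus close to the mean. NCD2 held the highest value for 6 of the 10 genes and HFD2 the lowest for 6. Without *Btg2* the averages were 0.09, 0.37 and 0.15 in NCD and −0.15, −0.45 and −0.00 in HFD. The summed level of the 10 was 185.4, 208.8 and 182.7 CPM in NCD and 141.9, 147.1 and 152.6 CPM in HFD, and of the 9 without *Btg2* 150.5, 165.7 and 145.9 CPM in NCD and 131.4, 132.1 and 136.0 CPM in HFD. The median SD within a diet, on the log2 scale, was 0.37 for the 10 and 0.31 for all genes.

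Over the 6 samples, the mean deviation of the 10 genes was compared with that of the 11890 other genes whose mean count was 50 or more. The measure was the root mean square of the differences in log2 units, whose median over those genes was 0.399. The most alike were *Garem2* at 0.028, *Zfp395* at 0.067, *Ldb3* at 0.071, *Zfp583* at 0.085 and *Zfp768* at 0.095. Each had a log2 fold change between −0.51 (SE 0.26, *Garem2*) and −0.43 (SE 0.29, *Ldb3*), as the choice by likeness fixes.

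Per transcript length, in the deposited FPKM, *Klf6* was highest in both diets, at 20.8 ± 5.92 in NCD and 17.8 ± 4.42 in HFD (SD, n = 3 each). In NCD it was followed by *Btg2* at 13.9 ± 1.41, whose samples overlapped those of *Klf6* but lay above all samples of the next gene, *Klf2*, at 8.12 ± 1.53. *Ier5* at 7.4 ± 0.604, *Ier2* at 6.47 ± 1.06, *Gadd45b* at 6.14 ± 2.32 and *Klf10* at 5.04 ± 2.64 came next. *Zfp36* at 3.23 ± 0.65, *Atf3* at 2.51 ± 0.586 and *Klf4* at 2.23 ± 0.756 were lowest. From *Klf2* down, each gene overlapped its neighbour in this order. In HFD all samples of *Klf6* lay above those of the next gene, and *Btg2* moved from rank 2 to rank 4, at 5.12 ± 1.18, after *Ier5* at 6.68 ± 0.457 and *Klf2* at 6.1 ± 1.91. *Ier2*, *Klf10*, *Gadd45b*, *Zfp36*, *Atf3* and *Klf4* followed at 4.31, 4.05, 3.42, 3.1, 2.06 and 1.14 FPKM, each overlapping its neighbour. The level of *Klf6* depends on the unit, since its FPKM per CPM, here CPM of the library totals without TMM factors, ranged from 0.237 to 0.390 between samples, a factor of 1.65, against 1.19 for *Klf10* and at most 1.05 for the other 8.

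The genes share a compact structure that their choice did not use. Their median span in GENCODE M21 was 3710 bases, against 25434 for all genes fitted, and 9 of the 10 spanned under 10000 bases, as did 23.3% of all. *Atf3*, with a distant upstream start in the annotation, spanned 47744 bases. The principal transcripts had a median of 3.5 exons against 9, and 9 of the 10 had at most 4, as did 22.5% of all. *Klf4* had 5. In the 3′ untranslated region the pentamer AUUUA occurred at least once in 8 of the 10 and in 68.2% of all genes, at a median of 1.8 per kilobase against 1.3. The longer UAUUUAU occurred in 6 of the 10 and in 29.5% of all. *Zfp36*, whose protein binds this element, held 3 copies of it and the densest AUUUA of the 10 (3.88 per kilobase), while *Ier2* and *Gadd45b* held none. *Btg2* held 1 copy of UAUUUAU and 5 of AUUUA. *Atf3* and *Zfp36* are each overlapped by a gene on the opposite strand, by 108 and 1274 bases, and whether the counting used strand is not given in the sources used here, so reads of the partners cannot be told apart from theirs.

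**Figure D3:**
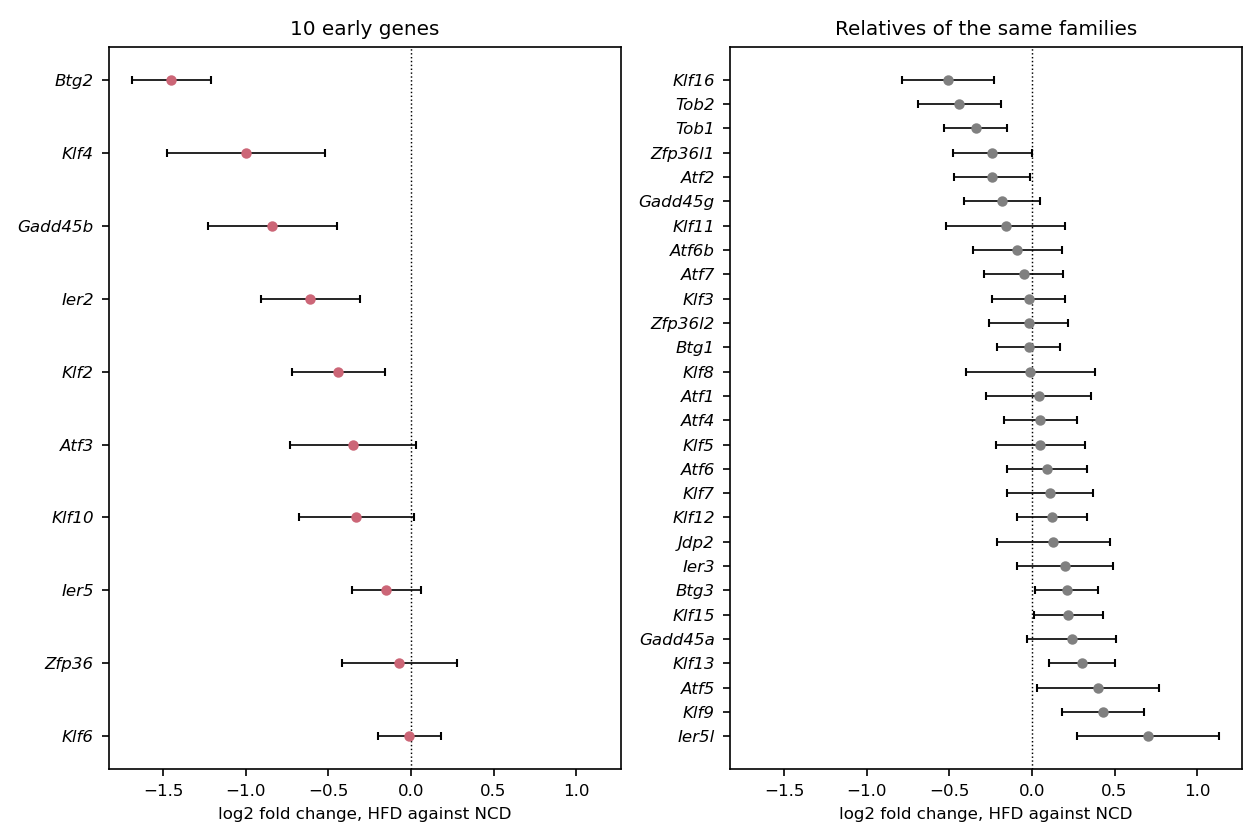
Log2 fold change of HFD against NCD (points) with its standard error (bars) for the 10 early genes on the left and their 28 fitted relatives on the right, each panel sorted by value on the same axis. The relatives lie on both sides of 0, from −0.51 for *Klf16* to 0.70 for *Ier5l*, and none reaches the −1.45 of *Btg2*.

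Relatives of the same families were taken as whole lists. Of 33 listed, 28 were fitted, 13 with a log2 fold change below 0 and 15 above, and the median was 0.05. None reached an unadjusted or adjusted p of 0.05 in edgeR or DESeq2, and limma on FPKM put 1 of the 28, *Klf13*, past the study's rule, against 0.30 (SE 0.20) in edgeR. The −1.45 of *Btg2* compared with −0.44 (SE 0.25) for *Tob2*, −0.34 (SE 0.19) for *Tob1*, which was lower in HFD without overlap, −0.02 (SE 0.19) for *Btg1*, which had the highest CPM of the BTG/TOB relatives, and 0.21 (SE 0.19) for *Btg3*. The −0.84 of *Gadd45b* compared with −0.18 (SE 0.23) for *Gadd45g* and 0.24 (SE 0.27) for *Gadd45a*, and the −0.07 of *Zfp36* with −0.24 (SE 0.24) for *Zfp36l1* and −0.02 (SE 0.24) for *Zfp36l2*. The −0.35 of *Atf3* lay below the range of the ATF relatives, from −0.24 (SE 0.23) for *Atf2* to 0.40 (SE 0.37) for *Atf5*. *Klf9*, a target of the glucocorticoid receptor and the Krüppel-like relative with the highest CPM, was at 71.9, 95.1 and 135.3 CPM in NCD1 to NCD3 and at 127.6, 118.5 and 159.5 CPM in HFD1 to HFD3, overlapping, with a log2 fold change of 0.43 (SE 0.25). *Klf15*, at 0.22 (SE 0.21), was higher in HFD without overlap. The differences between the early genes and their relatives were not tested.

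**Figure D4:**
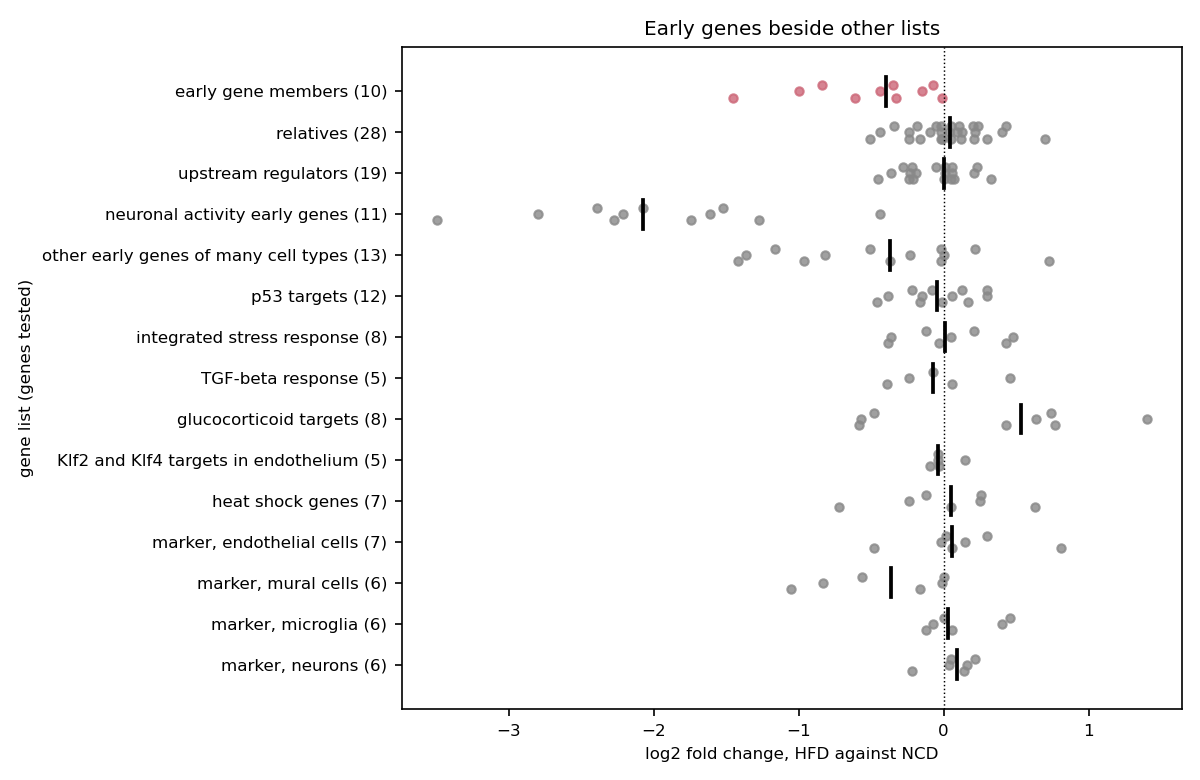
Log2 fold change of HFD against NCD for each fitted gene (points) of the 10 early genes (red) and of 14 other lists (grey), with the number of genes fitted in brackets and the median of each list as a black bar. The neuronal activity genes lie farthest to the left, with a median of −2.07, and the medians of the relatives and the regulators lie at 0.05 and 0.00.

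The neuronal activity genes, a list written with these results known, had values farther from 0 than most of the 10 early genes. All 11 were below 0 with a median of −2.07, 9 met the study's rule, and 7 passed an adjusted p of 0.05, of the 8 genes that did so in all. *Nr4a1*, an orphan nuclear receptor, fell from 70.1, 92 and 73.3 CPM in NCD1 to NCD3 to 8.82, 11.9 and 13.2 CPM in HFD1 to HFD3, a log2 fold change of −2.80 (SE 0.24, edgeR adjusted p = 0.000503). The lowest value of the list was that of *Egr2*, a zinc finger factor, at −3.49 (SE 0.43, edgeR adjusted p = 0.0108), from 7.47, 8.04 and 13.4 CPM in NCD to 0.994, 0.887 and 0.564 CPM in HFD, where HFD3 held 3 counts. *Egr1* had the highest CPM and was at −2.27 (SE 0.29), and *Egr3*, at −0.44 (SE 0.45), was closest to 0. Another list, also written with results of these data known, held 14 further early genes of many cell types. Of these, 13 were fitted, 10 were below 0, and the median was −0.37. Of all genes fitted, 49.5% were below 0, and 0.888% met the study's rule and were lower in HFD. *Maff* at −1.42 (SE 0.58), *Sik1* at −1.36 (SE 0.28), *Dusp1*, which switches MAP kinases off, at −1.16 (SE 0.22), *Fosl2* at −0.96 (SE 0.35) and *Ccn1* at −0.82 (SE 0.31) met the study's rule and no adjusted p in edgeR, while DESeq2 put *Sik1* and *Dusp1* under an adjusted p of 0.05. *Jund* was highest, at 0.73 (SE 0.35), and met the rule, higher in HFD, in DESeq2 only. Limma on FPKM did not put *Fosl2* past it.

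Transcripts of kinases and factors that switch early genes on were counted next, which does not measure their phosphorylation. The study reported less phosphorylated CREB1 in the hypothalamus of HFD mice by western blot. Of 20 such transcripts listed, 19 were fitted, 9 were below 0 and 10 above. None met the study's rule in edgeR, DESeq2 or limma. The median was 0.00, from −0.45 (SE 0.30) for *Mrtfa*, a cofactor of serum response factor, to 0.33 (SE 0.27) for *Mef2c*. Lists of pathways known to induce single members held genes on both sides of 0, and by these 3 tools none of their genes met the rule. The 12 p53 targets, the group to which *Btg2* belongs, ran from −0.46 (SE 0.54) for *Eda2r* to 0.30 for *Cdkn1a* and *Bax*, with a median of −0.05. *Eda2r* was lower and *Bax* higher in HFD without overlap. The 8 genes of the integrated stress response, which induces *Atf3*, ran from −0.38 (SE 0.36) for *Sesn2* to 0.48 (SE 0.31) for *Chac1*, with a median of 0.01. The 5 of the TGF-beta response, which induces *Klf10*, ran from −0.39 (SE 0.19) for *Skil*, lower in HFD without overlap, to 0.46 (SE 0.37) for *Pmepa1*, with a median of −0.07. Of 5 endothelial targets of *Klf2* and *Klf4* none met the rule either (median −0.04). Of 11 transcripts that tristetraprolin is known to destabilize, 3 were fitted (median 0.20), and *Socs3*, an inhibitor of leptin signalling, met the rule at 1.08 (SE 0.37). Of 7 heat shock genes *Dnajb1* met it at −0.72 (SE 0.20) and *Hspb1* at 0.63 (SE 0.24), with a median of 0.05. Of 8 glucocorticoid targets, *Zbtb16* at 1.40 (SE 0.27), *Mt2* at 0.77 (SE 0.30) and *Tsc22d3* at 0.74 (SE 0.22) met it, all higher in HFD, with a median of 0.53. The lowest of that list were *Sgk1* at −0.58 (SE 0.25) and *Per1* at −0.57 (SE 0.21), both at an unadjusted p under 0.05 but short of 1.5-fold in edgeR, and limma on FPKM put *Sgk1* past the rule. No gene of these lists passed an adjusted p of 0.05 in edgeR, and in DESeq2 *Zbtb16* was the only one that did.

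Cell type markers were read beside the early genes, since *Klf2*, *Klf4*, *Atf3* and *Zfp36* are also genes of vessel cells and microglia. None of 6 neuron and 6 microglia markers met the rule in edgeR or DESeq2, with medians of 0.09 and 0.03, and limma on FPKM put the microglia gene *Csf1r* past it. Of 7 endothelial markers *Ly6c1* met it at 0.81 (SE 0.23). *Cldn5*, of the tight junctions, went the other way at −0.48 (SE 0.21), lower in HFD without overlap and at an unadjusted p under 0.05 but short of 1.5-fold. The median of the 7 was 0.06, and their summed level was 201.1, 205.1 and 177.1 CPM in NCD and 210.7, 211.8 and 208.8 CPM in HFD. Of 6 mural cell markers (median −0.36), the 2 that met the rule are genes of smooth muscle, *Acta2* at −0.83 (SE 0.28) and *Tagln* at −1.05 (SE 0.39), the latter not in limma on FPKM. *Acta2* was at 20.7, 21.3 and 14.7 CPM in NCD1 to NCD3 and at 7.58, 12.1 and 12.4 CPM in HFD1 to HFD3, without overlap. *Rgs5*, the mural marker with the highest CPM, was at −0.00 (SE 0.21). The summed level of the 6 was 214.1, 186.3 and 157.7 CPM in NCD and 168.5, 184.7 and 156.4 CPM in HFD, and none was at 0 in any sample. Their part in the values of the early genes was not tested. The 5 red blood cell markers were below 0 (median −0.50). None met the rule in edgeR, *Hbb-bt* met it in DESeq2, and they had a summed level of 781.7, 2488 and 1966 CPM in NCD and 1687, 1156 and 823.5 CPM in HFD.

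Some markers of other cells of the region were higher in HFD. Of 8 ARC neuron markers 7 were above 0 (median 0.43), and *Cartpt* at 0.75 (SE 0.25) and *Tac2* at 0.60 (SE 0.27) met the rule, *Tac2* not in limma on FPKM, while *Pomc* was at −0.36 (SE 0.31). Their summed level was 1281, 2271 and 1555 CPM in NCD and 1931, 1813 and 2182 CPM in HFD. By mean, *Pomc* was highest on NCD and *Cartpt* on HFD, but in NCD3 *Cartpt* (577.3 CPM) lay above *Pomc* (500.0 CPM). All 5 tanycyte markers were above 0 (median 0.49), and *Col23a1*, which had the highest CPM, at 0.91 (SE 0.40) and *Crym* at 0.89 (SE 0.30) met the rule, *Col23a1* not in limma on FPKM. Their summed level was 111.7, 75.3 and 132.0 CPM in NCD and 158.1, 100.4 and 259.3 CPM in HFD. *Cga* met it at 1.36 (SE 0.54) among 4 markers of the pars tuberalis (median 0.57), with summed levels of 18.8, 7.23 and 34.5 CPM in NCD and 23.6, 15.2 and 64.2 CPM in HFD, and DESeq2 did not put it past the rule. *Gfap* met it at 0.88 (SE 0.35), while the other 5 astrocyte markers were below 0 (median of the 6 −0.13). The sums of the 3 former lists overlapped between the diets. Of the markers of oligodendrocytes, their precursors, ependymal cells and meningeal fibroblasts none met the rule by the 3 tools, with medians of −0.14, −0.18, −0.05 and 0.27. The part of any of these cells in the values of the early genes was not tested.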

How the data were processed

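RNA of 6 samples (3 NCD, 3 HFD, grouped by their titles, whose letters C and H were read as NCD and HFD) was sequenced on an Illumina NovaSeq. After cleaning the reads, the authors screened them against ribosomal sequences (bowtie2), placed them on the mouse genome (HISAT2) and quantified genes (StringTie, RSEM). Per the labels the build is mm10, and tool versions, annotation and strand are not given in the sources used here. The read counts deposited by the authors are not normalized, and the FPKM values deposited by the authors are scaled to transcript length and to the mapped reads of the sample. The group means, fold changes, p-values and FDR of the same table, from the authors' own DESeq2 comparison, were not used.

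Identifiers were matched to GENCODE M21 (22267 of 22322 matched). Of the 22322 genes, 4145 had no count. Low counts were removed with filterByExpr, which left 14188 genes, TMM factors were applied (prior count 2), and the diets were compared with edgeR's quasi-likelihood test with Benjamini-Hochberg adjustment over all genes fitted. The biological coefficient of variation was 0.244. Alternatives were DESeq2, RLE size factors, unscaled library totals, a filter at 1 count in any sample, a filter at a mean count of 50, a replicate block, a covariate for the log2 total count, leaving out each sample, and limma on log2(FPKM + 1) and log2(FPKM + 0.1), where the mean FPKM had to reach 0.5. The fit was tested on simulated data, with an outcome that is not reported here.

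The 10 genes, the other lists and the tests were chosen with earlier results of these data known, and the GC and TATA boxes were added after the counts had been read. Named were all 10 genes and, of each other list, genes with the largest change in either direction, with the highest CPM or past a threshold. Relatives shown beside a member or without overlap between the diets were also named. Promoter windows are those of RefSeq, and 3′ untranslated regions come from 1 principal transcript per gene. Software was edgeR 4.0.16, DESeq2 1.42.0 and limma 3.58.1 under R 4.3.3, and Python 3.11.15, pandas 2.3.3, numpy 2.4.6 and matplotlib 3.10.9.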

Additional observations from a re-analysis of the deposited data

How the results depend on the processing

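There were 3 samples per diet and 5171381 to 15925648 counts per sample. In edgeR with all samples, 3 of the 10 genes differed by more than 2 standard errors, namely *Btg2*, *Klf4* and *Gadd45b*. The others lay within 2 standard errors, *Ier2* (−0.61, SE 0.30) at the border. Among these, *Ier2* met the study's rule without NCD1 or HFD3, *Klf2* without HFD3 and *Klf10* without NCD3. *Btg2*, chosen on this contrast, was lower in HFD and past the study's rule in all 15 alternatives, and under an adjusted p of 0.05 in 5. *Klf6*, *Klf10* and *Zfp36* changed sign in some alternatives, and limma on FPKM moved *Klf6* to −0.20 with a pseudocount of 1 and to −0.21 with 0.1. The median log2 fold change of the 10 genes, −0.39, ranged from −0.60 to −0.31 when 1 sample was left out, the lowest without HFD3 and −0.59 without NCD3. Of the 10 genes, 2 had no overlap between the diets, against 3.24% of all genes lower without overlap. That number was 1 at a mean of at least 50 counts (against 3.34%), where *Ier2* came to overlap. *Klf4* and *Atf3*, which overlapped before, were not fitted there. With 1 sample left out the number lay between 2 and 6. It was 6 without NCD3 (where 1736 of all 14489 genes were lower without overlap) and 4 without NCD1 (against 6.65% of all genes) or HFD1 (5.28%). It was 3 without HFD2 (9.59%) or HFD3 (7.75%) and 2 without NCD2 (6.64%). The number of all genes under an adjusted p of 0.05 was 8. It was 15 for genes with at least 1 count, 15 after adding the log2 total count to the fit, 5 with limma on FPKM at either pseudocount, 19 with DESeq2, and between 1 and 16 with 1 sample left out, with 1 without NCD2, HFD1 or HFD2, 4 without HFD3 and 16 without NCD3. The number meeting the study's rule was 270. It was 427 for genes with at least 1 count, 179 at a mean of at least 50 counts, and between 195 and 982 with 1 sample left out, with 606 without HFD2 and 982 without NCD3. The cause of these shifts was not tested beyond the number of genes and samples that a setting leaves. In the fit with a replicate block, 17 genes passed the adjusted threshold and 376 the study's rule. *Btg2*, at −1.47, was among the 17, and 3 of the 10 genes (*Btg2*, *Klf4* and *Gadd45b*) met the rule, against 1.08% of all genes lower in HFD. The deviations of samples with the same number had correlations of −0.0116, 0.113 and 0.369, so the numbers were not taken to pair the samples. The number of genes of the other lists meeting the study's rule was 29 and ranged from 21 without HFD1 to 38 without NCD3.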
